A study of Danio rerio with 32 samples.

Results

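Skeletal muscle of gys2 knockout zebrafish was compared with skeletal muscle of wild-type zebrafish. The comparison used the 8 libraries titled as gys2 knockout muscle and the 8 titled as wild-type muscle, 16 of the 32 libraries of a study in which the other 16 were livers of the same genotypes. All fish were adult females of the AB strain, and the knockout and wild-type groups differed in the labels by genotype alone. The libraries were made by Lasy-Seq, which reads the 3′ end of polyadenylated transcripts, so levels are given as CPM, each library's counts scaled to a common depth with TMM factors, with no correction for gene length. Replicates are separate fish per the labels. The labels do not state the position or kind of the gys2 lesion, whether the knockout fish descend from 1 founder, the feeding state at sampling, or which liver and muscle came from the same fish.

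Glycogen synthase adds glucose units to glycogen, the stored form of glucose. Vertebrates carry a liver form, encoded by gys2, and a form used by muscle and most other tissues, encoded by gys1. Muscle glycogen is built on the primer protein glycogenin, is cut by glycogen phosphorylase when phosphorylase kinase is switched on by calcium and hormones, and fuels glycolysis within the fibre, whereas liver glycogen is turned into free glucose for the blood. The muscle comparison asks whether transcripts differ in a tissue that is known to rely on gys1 when the liver form is knocked out.

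The libraries carried the transcripts of skeletal muscle. All 19 muscle fibre markers found in the table were tested, and together they made up 12.3% ± 1.39 of the counts in knockout muscle and 12.5% ± 1.64 in wild-type muscle (SD, n = 8 each). Total counts were 2901980 ± 437304 per library in knockout muscle (2373329 to 3620243) and 3931370 ± 1717700 in wild-type muscle (1664493 to 7264469). The difference in depth did not pass a two-sided exact permutation test (p = 0.113), although it did without the shallowest wild-type library, number 4 (p = 0.0172), or without wild-type library 7 (p = 0.0468). The libraries numbered 6 held liver transcripts in both genotypes: hepatocyte markers took 3.37% of counts in knockout library 6 and 6.48% in wild-type library 6, against 0.578% to 0.892% in the other 14 libraries. Knockout library 5 stood apart by macrophage and antigen presentation genes, at 3138 summed CPM against 622 to 962 in the other 7 knockout libraries. In bulk tissue, fewer cells of a type and less RNA per cell cannot be told apart.

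**Figure D1:**
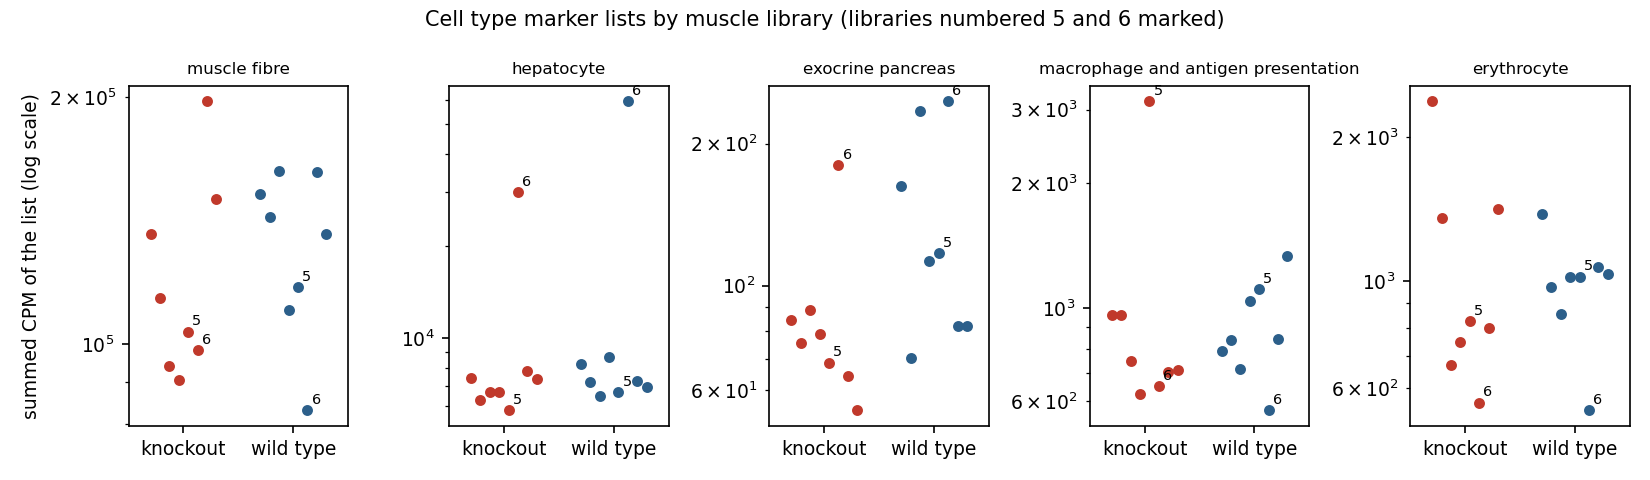
Summed CPM (log scale) of 5 cell type marker lists in each muscle library, knockout left and wild type right, with the libraries numbered 5 and 6 marked. Both libraries numbered 6 lie above all others for hepatocyte markers (30011 CPM in the knockout and 59147 CPM in the wild-type library), and knockout library 5 lies above all others for macrophage and antigen presentation markers.

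Across the transcriptome no gene was called different between knockout and wild-type muscle. The quasi-likelihood test of edgeR called 0 of 12894 genes at a Benjamini-Hochberg adjusted p under 0.05, and the smallest adjusted p was 0.439. An unadjusted p under 0.05 was reached by 606 genes, 4.7% of those tested, of which 257 were higher (1.99%) and 349 lower (2.71%) in knockout muscle. Log2 changes were positive for 50.6% and negative for 49.4% of all genes tested, and the median log2 change over all of them was 0.00. In 3 genes (0.0233%) the CPM ranges of the genotypes did not overlap, 2 higher (0.0155%) and 1 lower (0.00776%) in knockout muscle. Limma-voom with sample quality weights called 0 genes (1211 at an unadjusted p under 0.05), and DESeq2 called 1 gene, cpa5 (695 at an unadjusted p under 0.05). With both libraries numbered 6 left out, edgeR called the same single gene, 0.00776% of those tested. An unadjusted p under 0.05 was then reached by 660 genes (5.12%). That fit kept the genes chosen by the count filter over all libraries. In the libraries left, cpa5 had at least 10 counts in 0 knockout and 6 wild-type libraries, too few for the filter. With the library number as a block, edgeR over all libraries called 2 genes, cpa5 and AL929210.2, both lower in knockout muscle. An unadjusted p under 0.05 was reached by 925 genes in that fit. Whether the numbers mark pairs is not settled.

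The precision of the comparison depended on abundance. A log2 change of 1 is a 2-fold difference. The 95% interval of the log2 change lay within ±1 for 10259 genes (79.6%) and within ±0.5 for 2041 genes (15.8%). Among the 702 genes with a mean of at least 100 CPM, 94.0% had intervals within ±1 and 50.1% within ±0.5. Among the 2240 genes under 5 CPM, 40.7% had intervals within ±1. Differences of 2-fold were thus not bounded for most of the weakly counted genes. Only 61 genes had a log2 change beyond ±1.

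**Figure D2:**
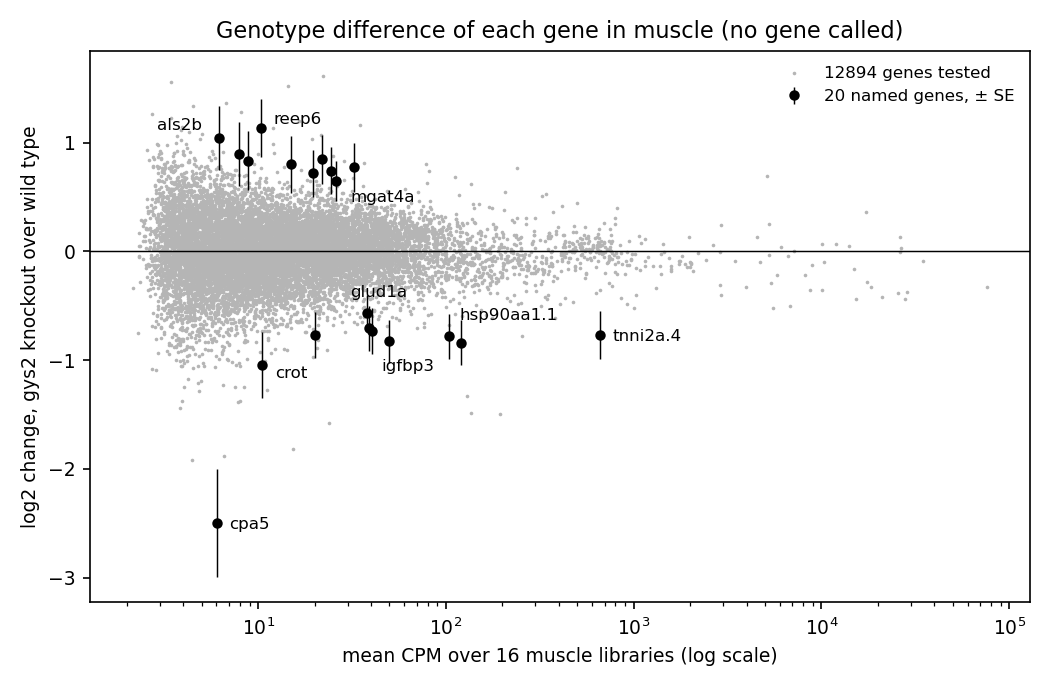
Log2 change of knockout over wild-type muscle against mean CPM (log scale) for the 12894 genes tested (grey), with the 20 named genes of smallest unadjusted p in black with their standard errors. The cloud is centred on 0.00, narrows as CPM increases, and cpa5 at -2.50 lies farthest from 0 among the named genes.

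The targeted gene was at the edge of detection in muscle of both genotypes. Knockout muscle gave 1 to 12 gys2 counts per library, which is 0.286 to 3.00 CPM with a median of 0.811. Wild-type muscle gave 0 to 15 counts, which is 0 to 3.25 CPM with a median of 0.422. In 3 wild-type libraries gys2 had no count, which allows up to 0.464, 1.61 and 1.75 CPM at 3 counts each, and the groups overlapped almost fully. The mean log2(CPM + 0.5) was higher by 0.59 in knockout muscle (two-sided exact permutation p = 0.257, n = 8 each), and gys2 had too few counts for the edgeR fit. Tags from the 3′ end need not cover the lesion, so these values check neither the lesion nor the labels.

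The muscle synthase gys1 was well counted, and its level did not pass the test. Knockout muscle ran from 124 to 203 CPM with a median of 156, against 140 to 238 CPM with a median of 191 in wild-type muscle. The ranges overlapped, and 7 of 8 knockout libraries lay below the wild-type median. The edgeR log2 change was -0.22 ± 0.16 (SE; 95% interval -0.55 to 0.10; adjusted p = 0.963). On log2(CPM + 0.5) the mean difference was -0.21 (two-sided exact permutation p = 0.113, n = 8 each). It was -0.27 (exact permutation p = 0.0443) without wild-type library 4 and -0.09 (exact permutation p = 0.513) when CPM were taken from library totals instead of TMM.

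Around gys1, the other genes of glycogen synthesis showed no common direction. Of 18 tested, 10 had positive and 8 negative log2 changes, with a median of 0.02 against 0.00 over all genes, and none was past an unadjusted p of 0.05. Their changes ran from -0.48 to 0.36. The intervals of 13 of the 18 lay within ±1. The glycogenin gyg1b, which primes the glycogen particle, ran from 26.9 to 100.2 CPM with a median of 31.3 in knockout muscle, against 16.6 to 44.2 CPM with a median of 40.1 in wild-type muscle. Its knockout mean was set by libraries 7 and 5, at 100.2 and 66.4 CPM, while its knockout median lay below the wild-type median, and its log2 change of 0.36 ± 0.27 did not pass (edgeR adjusted p = 0.969). Phosphoglucomutase pgm1, which interconverts glucose 1-phosphate and glucose 6-phosphate, averaged 181 ± 80.4 CPM in knockout muscle and 175 ± 45.8 CPM in wild-type muscle. The subunit ppp1r3ca, which brings protein phosphatase 1 to glycogen, averaged 64.4 ± 40.03 CPM in knockout muscle and 74.5 ± 33.9 CPM in wild-type muscle. The kinase gene gsk3ba, whose product phosphorylates and restrains glycogen synthase, averaged 13.6 ± 4.64 CPM in knockout muscle and 10.96 ± 3.07 CPM in wild-type muscle.

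The enzymes of glycogen breakdown gave 6 positive and 6 negative log2 changes among 12 tested. Their median was -0.00 against 0.00 over all genes. The 1 member past an unadjusted p of 0.05, which 4.7% of all genes passed, was phkb, the β subunit of phosphorylase kinase. It ran from 16.5 to 37.2 CPM with a median of 27.6 in knockout muscle, against 25.4 to 50.9 CPM with a median of 37.9 in wild-type muscle. All 8 knockout libraries lay below the wild-type median, though the ranges overlapped, and the log2 change of -0.56 ± 0.19 did not pass adjustment (edgeR adjusted p = 0.956). The other subunit genes of the same kinase were mixed in direction. The catalytic subunit phkg1a averaged 213 ± 20.02 CPM in knockout muscle and 209 ± 23.98 CPM in wild-type muscle, a log2 change of 0.03 with an interval of -0.27 to 0.33. The regulatory subunit phka2 had a log2 change of 0.28 ± 0.20, and calm1a, one of the calmodulin genes whose product is the calcium-sensing subunit, -0.31 ± 0.16. Muscle glycogen phosphorylase pygma averaged 149 ± 63.2 CPM in knockout muscle and 152 ± 39.8 CPM in wild-type muscle, with an interval of the log2 change from -0.45 to 0.39.

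**Figure D3:**
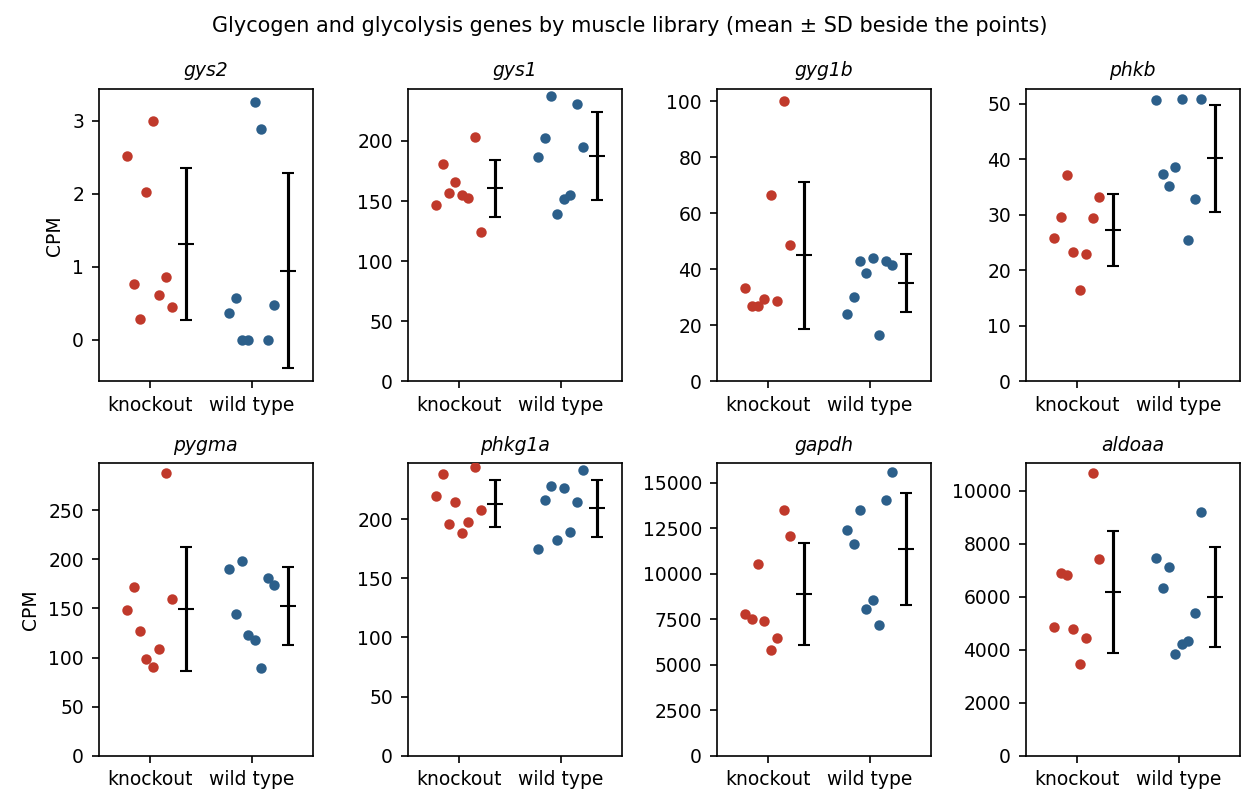
CPM of gys2, gys1 and 6 further genes of glycogen and glucose breakdown in each muscle library, knockout left and wild type right, each point 1 fish and the bar beside them the mean ± SD. The genotypes overlap in all 8 panels; phkb has all 8 knockout libraries under the wild-type median, and gys2 does not exceed 3.25 CPM.

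Glycolysis, the route that burns glucose 6-phosphate from glycogen, gave 17 positive and 13 negative changes among 30 genes, with a median of 0.05 and none past an unadjusted p of 0.05. The gene gapdh, the glyceraldehyde-phosphate dehydrogenase and the most counted member, ran from 5791 to 13499 CPM with a median of 7644 in knockout muscle, against 7210 to 15588 CPM with a median of 12018 in wild-type muscle. The ranges overlapped, and the log2 change was -0.36 ± 0.20 (edgeR adjusted p = 0.956). The muscle aldolase aldoaa had a log2 change of 0.04 ± 0.21 and the muscle enolase eno3 one of 0.13 ± 0.21. The member with the smallest p was gpib, a glucose-6-phosphate isomerase, at 21.4 ± 10.98 CPM in knockout muscle and 12.6 ± 7.22 CPM in wild-type muscle (log2 change 0.75 ± 0.39). The genes that release or rebuild glucose were 6 positive and 6 negative of 12, with a median of -0.02. Among these, g6pca.2, a glucose-6-phosphatase catalytic subunit, averaged 32.7 ± 8.94 CPM in knockout muscle and 25.1 ± 5.06 CPM in wild-type muscle (log2 change 0.37 ± 0.19). The muscle fructose-bisphosphatase gene fbp2 averaged 52.9 ± 21.7 CPM in knockout muscle and 54.5 ± 9.01 CPM in wild-type muscle. The pentose phosphate genes were 5 positive and 5 negative of 10, with a median of -0.01. Of these, 1 was lower at an unadjusted p under 0.05 (against 2.71% of all genes).

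Genes of glucose entry were 5 positive and 5 negative of 10, with a median of -0.04. The transporter slc2a3b averaged 5.73 ± 2.52 CPM in knockout muscle and 8.45 ± 3.00 CPM in wild-type muscle (log2 change -0.55 ± 0.29). The small GTPase gene rac1a, which acts in insulin-driven transporter movement, had a log2 change of -0.40 ± 0.22, with all 8 knockout libraries below the wild-type median. The brake on glucose uptake txnipa averaged 266 ± 102 CPM in knockout muscle and 215 ± 53.3 CPM in wild-type muscle, a log2 change of 0.31 ± 0.20. Its copy txnipb varied widely within both groups, from 15.8 to 208 CPM in knockout muscle and from 21.8 to 126 CPM in wild-type muscle. None of these 4 genes passed an unadjusted p of 0.05.

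The genes that respond to insulin, fasting or glucocorticoids had 8 positive and 15 negative changes among 23 tested, with a median of -0.07 under TMM and 0.07 under library totals, where all genes had a median of 0.13. The insulin receptor gene insra, at 9.37 ± 3.17 CPM in knockout muscle and 13.4 ± 4.38 CPM in wild-type muscle, was past an unadjusted p of 0.05 with a log2 change of -0.51 ± 0.25 (edgeR adjusted p = 0.956). The kinase akt2, which carries the insulin signal, had a log2 change of -0.41 ± 0.22. The stress and glucocorticoid target ddit4, which restrains the growth kinase mTORC1, averaged 3337 ± 720 CPM in knockout muscle and 3555 ± 578 CPM in wild-type muscle, and its interval of -0.44 to 0.26 lay within ±0.5. The gene fkbp5, another glucocorticoid target, varied from 43.8 to 364 CPM in knockout muscle and from 37.4 to 172 CPM in wild-type muscle.

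Small negative values were common among genes of energy metabolism. Scaling by library totals in place of TMM moved the median log2 change of all genes to 0.13, and list medians under that scaling are read against it. Positive changes rose from 6520 to 8853 of 12894 genes. Counts by direction under library totals are read against these 8853 positive and 4041 negative changes. Glycogen synthesis (0.10), glycogen breakdown (0.11), glycolysis (0.17), glucose release (0.08), the pentose phosphate pathway (0.12) and glucose entry (0.07) all had positive medians under library totals. Of 29 genes of pyruvate dehydrogenase and the TCA cycle, 23 were negative with a median of -0.10, and 13 were negative with a median of 0.02 under library totals. Of 83 nuclear oxidative phosphorylation genes, 65 were negative with a median of -0.08, and 35 with a median of 0.02 under library totals. Of 34 genes of fatty acid oxidation and uptake, 29 were negative with a median of -0.12, and 19 with a median of -0.02 under library totals. Relative to all genes under library totals these 3 medians lay at -0.11, -0.11 and -0.15. At an unadjusted p under 0.05 the 3 lists held 1 of 29, 2 of 83 and 1 of 34 genes, against 4.7% of all genes. Of the 2 oxidative phosphorylation genes, 1 was higher and 1 lower in knockout muscle.

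Among them, pdha1a, the E1α subunit that admits pyruvate to the cycle, ran from 100.4 to 222 CPM with a median of 146 in knockout muscle, against 152 to 239 CPM with a median of 197 in wild-type muscle. Most knockout libraries were low, 7 of 8 below the wild-type median, with overlapping ranges and a log2 change of -0.38 ± 0.17 (edgeR adjusted p = 0.956). Its weakly counted copy pdha1b went the other way, at 7.79 ± 4.50 CPM in knockout muscle and 4.94 ± 1.49 CPM in wild-type muscle (log2 change 0.66 ± 0.33), and reads of near-identical copies may be split between them. The complex I subunit gene ndufb3 averaged 186 ± 46.1 CPM in knockout muscle and 255 ± 73.7 CPM in wild-type muscle (log2 change -0.45 ± 0.19, 8 of 8 knockout libraries below the wild-type median), while cox6b1 of complex IV averaged 83.5 ± 40.3 CPM in knockout muscle and 60.6 ± 15.6 CPM in wild-type muscle (log2 change 0.47 ± 0.21). The ATP synthase gene atp5mc3b was nearly level, with a log2 change of -0.01 and an interval of -0.38 to 0.36. In fatty acid oxidation, crata, a carnitine acetyltransferase, had a log2 change of -0.46 ± 0.20, and acadm, the medium-chain acyl-CoA dehydrogenase, -0.27 ± 0.18.

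Transcripts encoded by the mitochondrial genome had the largest negative median of the energy lists. Of 13 protein-coding genes, 11 were negative under both TMM (median -0.29) and library totals (median -0.23, against 0.13 for all genes). The range over the 13 was -0.50 to 0.16. An unadjusted p under 0.05 was reached by 2, both lower (against 2.71% of all genes). The gene mt-nd3, a subunit of complex I, ran from 3931 to 8696 CPM with a median of 5321 in knockout muscle, against 5841 to 11340.4 CPM with a median of 7681 in wild-type muscle. Of the knockout libraries 7 of 8 lay below the wild-type median, the ranges overlapped, and the log2 change was -0.50 ± 0.19 (edgeR adjusted p = 0.956). Cytochrome b, mt-cyb, averaged 12928 ± 3735 CPM in knockout muscle and 17547 ± 3015 CPM in wild-type muscle, a log2 change of -0.44 ± 0.18 (edgeR adjusted p = 0.956). Summed over the 13, knockout libraries 2 to 6 held 82291 to 102358 CPM and knockout libraries 1, 7 and 8 held 136177 to 179732 CPM, against 104124 to 190067 CPM in wild-type muscle. The TMM factors of the knockout libraries were split likewise, at 1.11 to 1.25 in libraries 2 to 6 and 0.785 to 0.886 in libraries 1, 7 and 8. Wild-type muscle was split too, with factors of 1.04 to 1.11 in libraries 4 to 6 and 0.820 to 0.966 in the others. Summed over the 13, those wild-type libraries held 104124 to 144251 CPM and 144880 to 190067 CPM. The part of this split in the genotype difference was not tested. These transcripts are cut from shared precursors, so their values do not vary independently.

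Of the 17 tested genes of creatine and adenine nucleotide handling, creatine kinases and an ADP/ATP carrier among them, all 17 had negative log2 changes under TMM. Their median was -0.14. Under library totals 9 were negative with a median of -0.05, which is -0.18 relative to all genes, and under TMM without both libraries numbered 6 there were 15. In the main fit 2 of the 17 were lower at an unadjusted p under 0.05 (against 2.71% of all genes). The muscle creatine kinase ckma ran from 18141 to 31118 CPM with a median of 22209 in knockout muscle, against 18574 to 42722 CPM with a median of 33884 in wild-type muscle. All 8 knockout libraries lay below the wild-type median, but the lowest wild-type library, number 6, reached as low as the knockout ones, and the log2 change was -0.44 ± 0.19 (edgeR adjusted p = 0.956). Its copy ckmb had a log2 change of -0.42 ± 0.19, and slc25a5, an ADP/ATP carrier, one of -0.04 ± 0.18.

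**Figure D4:**
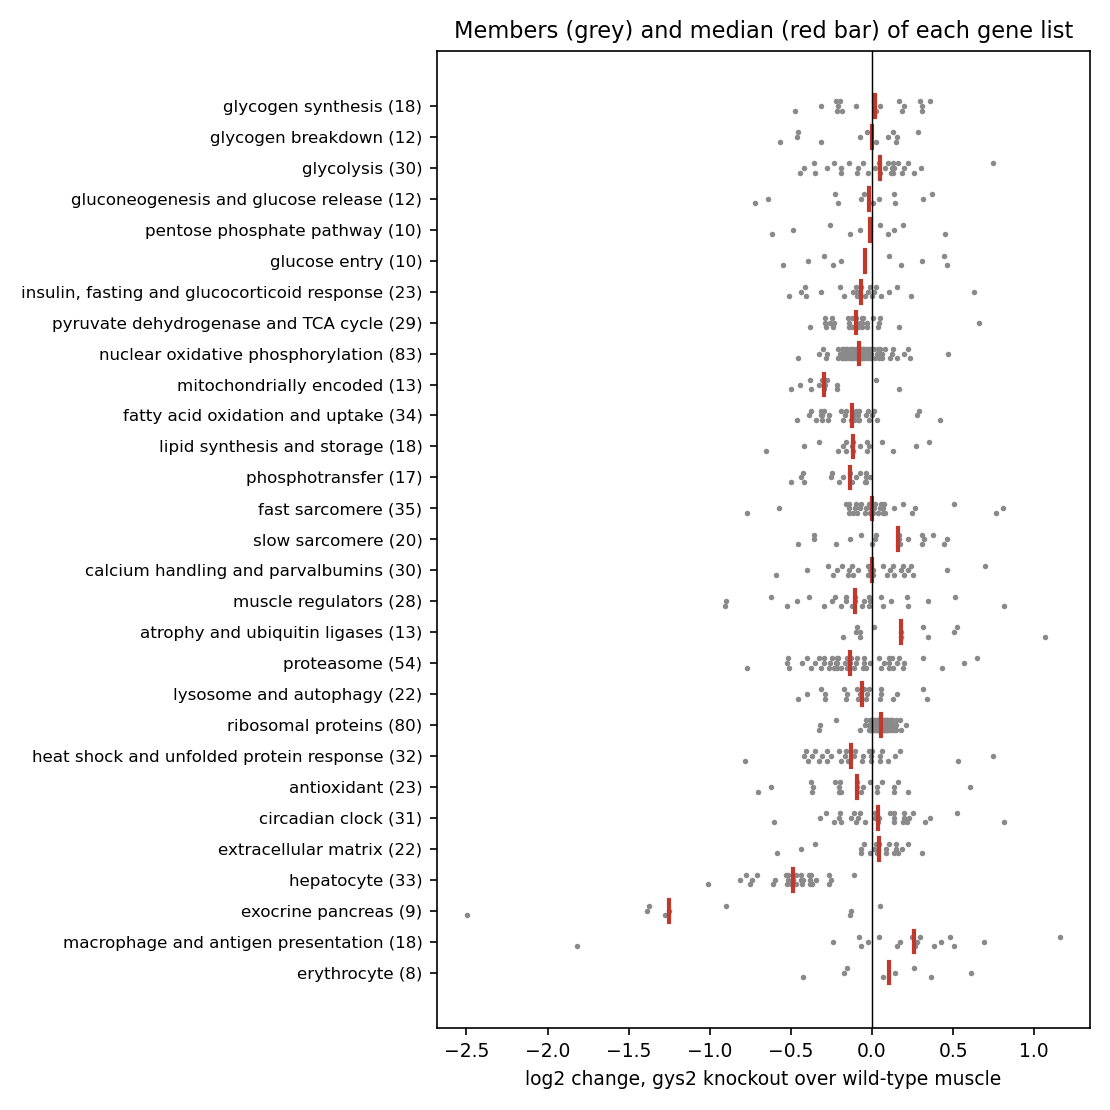
Log2 change of knockout over wild-type muscle for the tested members (grey points) of 29 gene lists, with the list median as a red bar and the number of members in parentheses. Most medians lie near 0.00, with hepatocyte markers at -0.49 and exocrine pancreas markers at -1.25 as the lowest; no member was called.

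No gene of the contractile machinery was called. Fast sarcomere genes were 17 positive and 18 negative of 35, with a median of -0.00 under TMM and 0.08 under library totals. At an unadjusted p under 0.05, 1 was higher and 2 were lower (against 1.99% and 2.71% of all genes). The light chain mylpfa averaged 14335 ± 5450 CPM in knockout muscle and 13872 ± 3600 CPM in wild-type muscle, with an interval of -0.38 to 0.47, and tropomyosin tpma had a log2 change of 0.07 ± 0.20. The fast troponin I gene tnni2a.4 was lower in mean: it ran from 267 to 786 CPM with a median of 501 in knockout muscle, against 525 to 1312 CPM with a median of 705 in wild-type muscle. Its ranges overlapped, with 7 of 8 knockout libraries below the wild-type median and a log2 change of -0.77 ± 0.22 (edgeR adjusted p = 0.956). The gene myoz1b, which anchors calcineurin at the Z-disc, had a log2 change of -0.57 ± 0.24, and the fast myosin heavy chain gene myhz2 one of 0.51 ± 0.23.

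Slow sarcomere genes were 14 positive and 6 negative of 20 under both scalings, with a median of 0.16 under TMM and 0.28 under library totals. Under library totals 8853 of all 12894 genes were positive, with a median of 0.13. None of the 20 was past an unadjusted p of 0.05. The slow myosin heavy chain gene smyhc2 ran from 341 to 1424 CPM with a median of 460 in knockout muscle, against 285 to 563 CPM with a median of 446 in wild-type muscle. Knockout library 1 held the highest value, the other 7 knockout libraries reached at most 599.9 CPM, and 4 of 8 lay above the wild-type median. The log2 change was 0.44 ± 0.24. The same library was also highest for the slow troponin C gene tnnc1b, at 1137 CPM. Heart muscle markers, which share genes with slow fibres, summed to 681 to 1373 CPM in knockout muscle and 285 to 1205 CPM in wild-type muscle.

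Calcium handling genes and parvalbumins were 15 positive and 15 negative of 30, with a median of -0.00. The gene stac3, the adaptor that couples the voltage sensor to calcium release, ran from 69.0 to 140.2 CPM with a median of 93.5 in knockout muscle, against 83.2 to 213 CPM with a median of 142 in wild-type muscle. All 8 knockout libraries lay below the wild-type median, with overlapping ranges, and the log2 change was -0.59 ± 0.19 (edgeR adjusted p = 0.956). The calcium buffer genes pvalb3 and pvalb4 had log2 changes of 0.13 ± 0.21 and -0.01 ± 0.21, and the calcium pump gene atp2a1l one of -0.12 ± 0.22. The gene pvalb2 averaged 6372 ± 3988 CPM in knockout muscle and 3937 ± 1588 CPM in wild-type muscle, with knockout library 7 at 15520.4 CPM.

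Regulators of muscle identity and growth were 8 positive and 20 negative of 28, with a median of -0.10 both under TMM and, relative to all genes, under library totals. An unadjusted p under 0.05 was reached by 4, all lower (against 2.71% of all genes). The smallest p belonged to myf5, the myogenic factor of satellite cells, which ran from 2.27 to 7.05 CPM with a median of 3.56 in knockout muscle, against 4.81 to 8.59 CPM with a median of 6.67 in wild-type muscle. Knockout library 6 was the only one of its group above the wild-type median, and the log2 change was -0.90 ± 0.31 (edgeR adjusted p = 0.956). The gene smyd1b, a methyltransferase needed for myosin assembly in zebrafish, averaged 39.4 ± 10.3 CPM in knockout muscle and 56.8 ± 18.8 CPM in wild-type muscle (log2 change -0.53 ± 0.20). Its copy smyd1a had a log2 change of -0.06 ± 0.19, and the differentiation factor gene myog one of -0.01 with an interval of -0.35 to 0.32. The homeobox gene six4b, at 3.69 ± 1.57 CPM in knockout muscle and 7.11 ± 4.04 CPM in wild-type muscle, had a log2 change of -0.91 ± 0.36. The fourth gene, six1a, another homeobox gene of muscle development named after its values were seen, had one of -0.62 ± 0.25.

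Genes of atrophy and its ubiquitin ligases were 8 positive and 5 negative of 13, with a median of 0.18. An unadjusted p under 0.05 was reached by 1, higher in knockout muscle (against 1.99% of all genes). That gene was nedd4a, a ubiquitin ligase, at 95.8 ± 20.99 CPM in knockout muscle and 75.1 ± 12.7 CPM in wild-type muscle (log2 change 0.35 ± 0.17). The atrophy ligase fbxo32 ran from 2.69 to 92.99 CPM with a median of 17.6 in knockout muscle, against 5.41 to 24.6 CPM with a median of 11.8 in wild-type muscle. Knockout libraries 7, 1 and 8 were high, at 92.99, 57.6 and 36.8 CPM, and the other 5 lay within the wild-type range or below it. The log2 change of 1.07 ± 0.65 did not pass an unadjusted p of 0.05. The same 3 libraries had the highest ubb, a polyubiquitin gene, at 766, 565 and 717 CPM, against 143 to 391.6 CPM across wild-type muscle. These 3 also had the lowest TMM factors of the knockout group, at 0.785 to 0.886. Their summed ribosomal protein, fast sarcomere and mitochondrially encoded CPM were the highest of that group as well. The part of this wider split in the fbxo32 and ubb values was not tested. The other atrophy ligase, trim63b, had a log2 change of -0.07 ± 0.23.

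Proteasome genes were 16 positive and 38 negative of 54 with a median of -0.14. Under library totals they were split 27 to 27, with a median of -0.13 relative to all genes. At an unadjusted p under 0.05, 4 were lower and 0 higher (against 2.71% and 1.99% of all genes). The gene psmb6, a catalytic subunit of the core, averaged 30.03 ± 6.01 CPM in knockout muscle and 43.1 ± 11.6 CPM in wild-type muscle (log2 change -0.52 ± 0.18, 8 of 8 knockout libraries below the wild-type median). Chaperone and unfolded protein response genes were 8 positive and 24 negative of 32 with a median of -0.13, and under library totals 17 of them were negative, with a median of -0.13 relative to all genes. The gene hsp90aa1.1, the HSP90 chaperone that folds myosin in zebrafish muscle, ran from 48.6 to 113 CPM with a median of 75.9 in knockout muscle, against 81.9 to 262 CPM with a median of 122.6 in wild-type muscle. All 8 knockout libraries lay below the wild-type median, the ranges overlapped, and the log2 change was -0.78 ± 0.21 (edgeR adjusted p = 0.956). The small heat shock gene cryaba lay the other way, at 23.7 ± 9.58 CPM in knockout muscle and 13.9 ± 4.50 CPM in wild-type muscle (log2 change 0.74 ± 0.24; edgeR adjusted p = 0.956). The gene hspa8, a constitutive HSP70, had a log2 change of 0.05 ± 0.17.

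Ribosomal protein genes were tightly bounded. Of 80, 65 were positive, with a median of 0.06 and a range of -0.33 to 0.21, and 65 of the 80 had intervals within ±0.5. None was past an unadjusted p of 0.05. Under library totals 77 were positive with a median of 0.15, which is 0.02 above that of all genes. Of all 12894 genes, 8853 were positive under that scaling. Among the remaining lists, clock genes were 18 positive and 13 negative of 31, extracellular matrix genes 15 and 7 of 22, antioxidant genes 8 and 15 of 23, lysosome and autophagy genes 7 and 15 of 22, and lipid synthesis and storage genes 4 and 14 of 18. Their medians lay between -0.12 and 0.04 under TMM and between 0.00 and 0.17 under library totals, and no member was called. At an unadjusted p under 0.05, 2 lysosome and autophagy genes and 1 extracellular matrix gene were lower (against 2.71% of all genes). The clock, antioxidant and lipid lists held none.

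Genes with a mean of at least 5 CPM were also ranked by unadjusted p where 7 or 8 of 8 knockout libraries lay on the same side of the wild-type median. The first 10 in each direction are named here as values. None of the 20 passed adjustment, at edgeR adjusted p from 0.439 to 0.956. Highest in rank among those with higher means was reep6, which shapes the endoplasmic reticulum and helps receptors reach the surface. It ran from 4.54 to 20.02 CPM with a median of 15.03 in knockout muscle, against 2.15 to 8.86 CPM with a median of 6.94 in wild-type muscle. Knockout library 8 was the only one of its group within the wild-type range, and the log2 change was 1.13 ± 0.27 (edgeR adjusted p = 0.673). Next were 2 glycosyltransferases. The gene b3galt6, which builds the linker of proteoglycan chains, averaged 28.2 ± 8.88 CPM in knockout muscle and 15.7 ± 4.93 CPM in wild-type muscle (log2 change 0.85 ± 0.22). The gene mgat4a, which branches N-glycans, averaged 31.9 ± 5.18 CPM in knockout muscle and 20.3 ± 5.23 CPM in wild-type muscle (log2 change 0.64 ± 0.18), with all 8 knockout libraries above the wild-type median. The others with higher means were als2b (1.04 ± 0.30), a guanine nucleotide exchange factor gene; myo9ab (0.74 ± 0.22), an unconventional myosin; vgll4a (0.72 ± 0.21), a cofactor of TEAD factors; stm (0.90 ± 0.29), which in zebrafish shapes the ear stones; syk (0.80 ± 0.26), a kinase of immune receptors; and the clone-named BX957362.4 (0.77 ± 0.22) and CR788226.1 (0.83 ± 0.27).

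Among genes with lower means, cpa5 ranked first and is described with the pancreas markers. The gene igfbp3, which binds insulin-like growth factors, ran from 25.7 to 57.6 CPM with a median of 34.95 in knockout muscle, against 37.6 to 100.7 CPM with a median of 60.2 in wild-type muscle. All 8 knockout libraries lay below the wild-type median, with overlap, and the log2 change was -0.83 ± 0.20 (edgeR adjusted p = 0.673, and 0.341 without both libraries numbered 6). The gene glud1a, the mitochondrial glutamate dehydrogenase, ran from 19.01 to 37.7 CPM with a median of 31.5 in knockout muscle, against 35.1 to 50.9 CPM with a median of 47.6 in wild-type muscle. Knockout library 8 alone lay within the wild-type range, and the log2 change was -0.57 ± 0.16 (edgeR adjusted p = 0.956). The gene crot, a peroxisomal acyltransferase, averaged 6.85 ± 2.88 CPM in knockout muscle and 14.2 ± 7.52 CPM in wild-type muscle (log2 change -1.05 ± 0.30), and tspo, a protein of the outer mitochondrial membrane, 29.6 ± 7.57 CPM in knockout muscle and 48.2 ± 18.7 CPM in wild-type muscle (log2 change -0.71 ± 0.21). The clone-named AL929210.2 averaged 86.0 ± 24.96 CPM in knockout muscle and 154 ± 67.96 CPM in wild-type muscle (log2 change -0.84 ± 0.21), with wild-type library 7 at 318 CPM. CDPF1 and mafaa, a transcription factor gene of the MAF family, had log2 changes of -0.77 ± 0.21 and -0.73 ± 0.21, and hsp90aa1.1 and tnni2a.4 complete the 10.

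**Figure D5:**
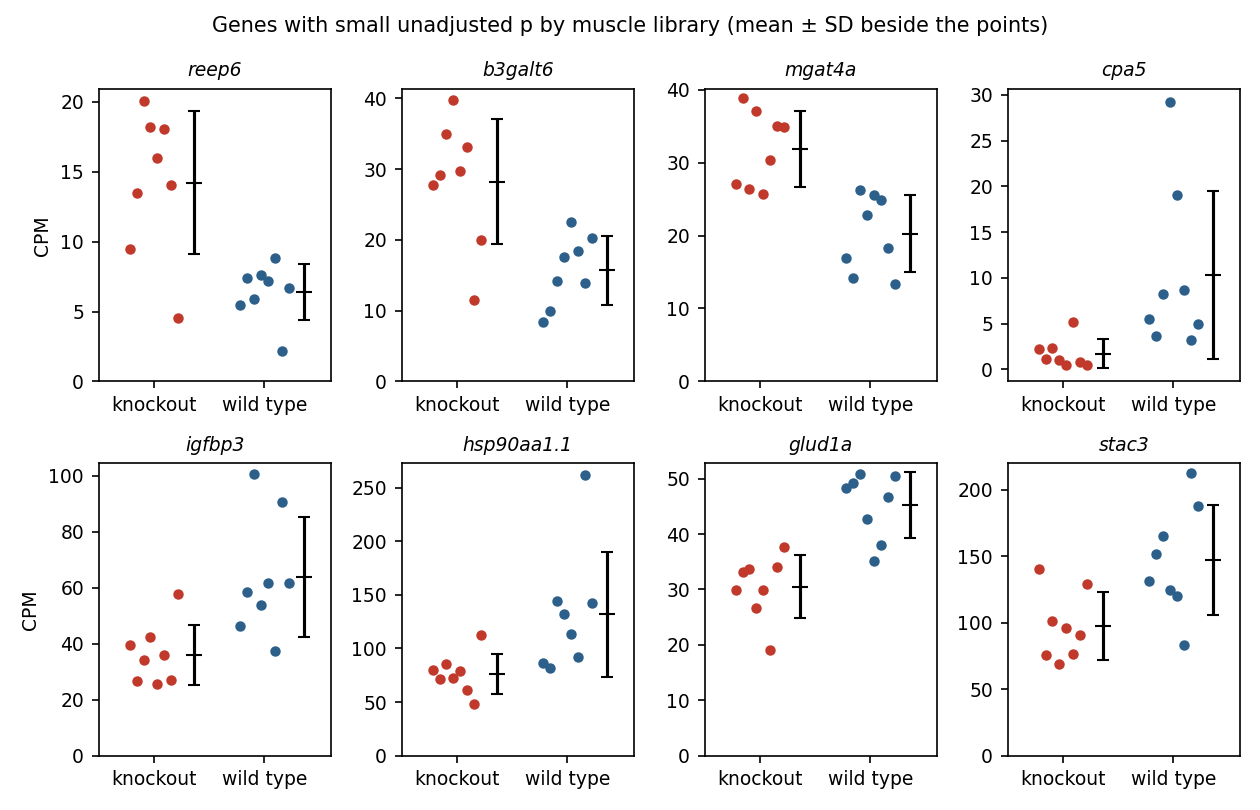
CPM of 8 genes with small unadjusted p in each muscle library, knockout left and wild type right, each point 1 fish and the bar beside them the mean ± SD. The groups are displaced but overlap in every panel, and the cpa5 means of 1.71 and 10.3 CPM rest on few counts, with wild-type libraries 4 and 5 highest.

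The 3 genes whose ranges did not overlap were chosen after their values were seen. The gene ift172, for a component of the transport complex of cilia, ran from 3.41 to 9.22 CPM with a median of 4.61 in knockout muscle, against 1.07 to 3.40 CPM with a median of 1.78 in wild-type muscle. Its log2 change was 1.22 ± 0.36. The knockout libraries start immediately above the wild-type ones, on as few as 8 counts in knockout and 2 in wild-type libraries. BX663503.3 had a log2 change of -0.57 ± 0.18 and btr04 one of 0.77 ± 0.37, and all 3 had an edgeR adjusted p of 0.956.

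Exocrine pancreas markers were the list with the lowest median. Of the 19 markers counted, 9 passed the count filter, and 8 of these were lower and 1 higher in mean in knockout muscle, with a median of -1.25 under TMM and -1.09 under library totals. An unadjusted p under 0.05 was reached by 5, all lower (against 2.71% of all genes). Without both libraries numbered 6 it was reached by 6 (against 5.12% of all genes, either direction), with a list median of -1.43. That fit kept cpa5, which would not have met the count filter in the libraries left. With at least 50 counts in 8 libraries the list median was -0.14, close to the value of cela1.6 alone, the most counted member. The genes cpa5, ctrb1 and prss59.2 did not meet that filter, so this median does not cover them. The levels were low. Summed over the list they ran from 54.5 to 180.0 CPM in knockout muscle with a median of 77.3, against 70.25 to 246 CPM with a median of 115 in wild-type muscle, and no marker was at 0 in all 16 libraries. About 40.2 ± 11.0 CPM of the knockout sum and 44.1 ± 12.2 CPM of the wild-type sum came from the elastase gene cela1.6, whose log2 change was -0.14 ± 0.18.

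The gene cpa5, a carboxypeptidase A gene, ran from 0.454 to 5.21 CPM with a median of 1.08 in knockout muscle, against 3.22 to 29.2 CPM with a median of 6.85 in wild-type muscle. The 8 knockout libraries lay below the wild-type median, and only knockout library 6, the one with liver transcripts, lay within the wild-type range. The log2 change was -2.50 ± 0.50 (95% interval -3.52 to -1.47) and did not pass over all libraries (edgeR adjusted p = 0.439). It passed in edgeR without both libraries numbered 6 (-3.02 ± 0.51, adjusted p = 0.0214), in edgeR without knockout library 6 alone (-2.99, adjusted p = 0.0163), and in DESeq2 over all libraries (adjusted p = 0.0019). It entered the test through 8 libraries with at least 10 counts, 1 knockout (library 6, 17 counts) and 7 wild-type, so it passed the count filter mainly through the group where it is high. Without both libraries numbered 6 it has at least 10 counts in 0 knockout and 6 wild-type libraries. Without knockout library 6 alone, only the 7 wild-type libraries are left. Neither set meets the filter of 8 libraries, and both fits leave out its highest knockout value. The protease genes ctrb1 (4.48 ± 2.62 CPM in knockout and 10.5 ± 7.03 CPM in wild-type muscle, log2 change -1.25 ± 0.38) and prss59.2 (4.31 ± 2.92 CPM in knockout and 11.3 ± 8.98 CPM in wild-type muscle, -1.38 ± 0.47) were also lower in mean, and the phospholipase gene pla2g1b was not (0.05 ± 0.52). The trypsin gene prss1 (-1.38 ± 0.54) and the carboxypeptidase B gene cpb1 (-0.90 ± 0.40), named after their values were seen, complete the 5. Whether pancreatic tissue or RNA of the dissection contributes to these values was not tested.

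Hepatocyte markers were negative in 33 of 33 tested, with a median of -0.49 under TMM and -0.43 under library totals. Without both libraries numbered 6 the same 33 were 10 positive and 23 negative, with a median of -0.09. The yolk precursor gene vtg1, made by the liver of females, ran from 2676 to 14816 CPM with a median of 3176 in knockout muscle, against 2944 to 29273 CPM with a median of 3257 in wild-type muscle. Its highest value in each genotype is library 6. The retinol carrier gene rbp4 was the only hepatocyte marker past an unadjusted p of 0.05, at 399 ± 128 CPM in knockout muscle and 553 ± 231 CPM in wild-type muscle (log2 change -0.47 ± 0.22, edgeR adjusted p = 0.956). Of all genes, 2.71% were lower at that unadjusted p. None of the 35 hepatocyte markers was at 0 in all 16 libraries.

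Macrophage and antigen presentation genes were 13 positive and 5 negative of 18 with a median of 0.26, and 16 were positive with a median of 0.41 under library totals. With that scaling 8853 of all 12894 genes were positive, with a median of 0.13. Knockout library 5 held 452 CPM of mhc2a and 740.3 CPM of cd74b, which present peptides on MHC class II, against at most 118 and 251 CPM in the other 7 knockout libraries. The median of mhc2a was 96.0 CPM in knockout muscle and 84.0 CPM in wild-type muscle. Summed over the list, the median lay the other way, at 730 CPM in knockout muscle and 840 CPM in wild-type muscle. The lysozyme gene lyz had the lowest value of the list, at 6.81 ± 2.82 CPM in knockout muscle and 23.9 ± 29.8 CPM in wild-type muscle (log2 change -1.82 ± 0.63; edgeR adjusted p = 0.956), with wild-type library 8 at 92.97 CPM. Ovary and oocyte markers were 5 positive and 18 negative of 23, with summed levels of 1379 to 2544 CPM in knockout muscle and 1428 to 2396 CPM in wild-type muscle. Of the 23, 2 were lower at an unadjusted p under 0.05 (against 2.71% of all genes), and 0 reached it without both libraries numbered 6. Erythrocyte markers were 5 positive and 3 negative of 8, and neutrophil and lymphocyte markers 3 and 5 of 8, with 3 lower at an unadjusted p under 0.05 (against 2.71% of all genes). These 3 were the neutrophil genes lyz, npsn (log2 change -1.88 ± 0.62) and lect2l (-1.22 ± 0.46), the last 2 named after their values were seen. The neutrophil and lymphocyte list summed to 58.1 to 105.7 CPM in knockout muscle (median 84.0) and 67.2 to 242 CPM in wild-type muscle (median 91.5). Its highest value was wild-type library 8. Markers of endothelium, fibroblasts, smooth muscle, skin, nerve, fat and pigment cells had medians from -0.16 to 0.12. At an unadjusted p under 0.05, 2 nerve markers were higher and 1 fibroblast marker was lower (against 1.99% and 2.71% of all genes).

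The muscle comparison was also set against the same comparison in liver, by testing the difference of the genotype effects over all 32 libraries. Of 14577 genes, 30 (0.206%) were called in edgeR, 27 of them lower in muscle than in liver and 3 higher, with 2568 at an unadjusted p under 0.05. This number moved with the processing: 3342 were called with library totals (3317 higher and 25 lower), 153 in DESeq2 (41 higher and 112 lower), 5 without the muscle libraries numbered 6 and 0 with all libraries thinned to the smallest total. Among the 135 named genes 5 were called. Many of the 135 were named for a small p of the muscle genotype effect, which is part of this difference. Their share of calls is therefore not comparable with that of all genes. The gene tspo was lower in mean in knockout muscle and higher in mean in knockout liver: on the scale of the joint fit it averaged 24.5 ± 6.41 CPM in knockout muscle and 39.8 ± 15.5 CPM in wild-type muscle, and 29.4 ± 3.58 CPM in knockout liver and 16.8 ± 4.21 CPM in wild-type liver. The difference of log2 changes was -1.51 ± 0.28 (edgeR adjusted p = 0.0139). For mt-nd3 it was -1.46 ± 0.28 (edgeR adjusted p = 0.0184), with log2 changes of -0.50 in muscle and 0.96 in liver. The gene pdha1a (-1.44 ± 0.29, adjusted p = 0.0292), the proteasome subunit gene psmd4b (-2.08 ± 0.43, adjusted p = 0.0310) and mt-co1 (-1.24 ± 0.28, adjusted p = 0.0397) followed in the same edgeR fit. In thinned libraries the 5 differences ran from -1.77 to -1.02 and none was called, with edgeR adjusted p from 0.125 to 0.260. Without the muscle libraries numbered 6 the values were -1.41 for pdha1a, -2.10 for psmd4b and -1.24 for mt-co1, and these 3 were not called (edgeR adjusted p = 0.0519, 0.0502 and 0.0730). With library totals tspo (-0.68), pdha1a (-0.66) and mt-co1 (-0.55) were not called (edgeR adjusted p = 0.101, 0.0960 and 0.0552). Libraries of the tissues were treated as independent.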

How the data were processed

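Whole-number counts per gene symbol were deposited by the authors as 1 table with a column per library. The build GRCz11 and the tools Salmon 1.10.2, BWA 0.7.17-r1188 and fastp 0.23.4 are listed, without their roles, per the submitters' processing notes. Use of strand or of molecular identifiers in the counting is not stated. Near-identical copies and overlapping genes may therefore share reads. Floors cover counting error only, while the intervals of log2 changes, from the edgeR fit, include the spread between fish.

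Genes with at least 10 counts in 8 or more of the 16 muscle libraries were tested, 12894 of 31658; 2147 genes were at 0 in all 16. The main test was edgeR 4.0.16's quasi-likelihood F test (robust, TMM, genotype as the only term; R 4.3.3), with Benjamini-Hochberg adjustment over all genes tested. The interaction was fitted over 32 libraries. Gys2, gys1 and library totals were compared with two-sided exact permutation tests, whose smallest p is 0.0001554. The fits were tested on simulated data. Alternatives used DESeq2 1.42.0, limma 3.58.1, other scalings and filters, thinning, the library number as a block and leaving out libraries. Same-group libraries differed by more than sampling noise (chi-square per gene 5.14 to 60.2 over 56 pairs), so none was counted as a duplicate.

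Named genes are gys2 and gys1, up to 10 in each direction ranked by p (mean of at least 5 CPM, 7 or 8 of 8 knockout libraries on the same side of the wild-type median), and, of each list described, up to 3 members with the smallest p and the 3 most counted. Members and lists were chosen with earlier results of these data known, and lists are described by counts and medians with no test of the list. Every library column was mapped to a sample by its label. No sequences are shown.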

Additional observations from a re-analysis of the deposited data

Results flagged for a closer look

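A value is given here where the highest or lowest library of a group of 8 stood far from the other 7, for the 135 named genes and the marker sums, or where the genotype effect differed between muscle and liver. Each of the 135 genes and 5 marker sums, and the library total, was examined in each genotype. Of all these groups, 26 had such a library. Chance flags about 1 in 20 groups. Flags of related genes in the same library, such as the vtg genes in the libraries numbered 6, are not separate events. The libraries involved were knockout library 6 with 8 values, wild-type library 6 with 8, wild-type library 7 with 4, knockout library 5 with 3, knockout library 1 with 2 and knockout library 2 with 1.

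Both libraries numbered 6 were high for liver products. In knockout library 6 the summed hepatocyte markers reached 30011 CPM, with vtg1 at 14816, vtg5 at 2753, vtg4 at 2243 and the prothrombin gene f2 at 54.0 CPM. In wild-type library 6 the sum reached 59147 CPM, with vtg1 at 29273, vtg5 at 5325, vtg4 at 4451, f2 at 108 and the fetuin gene ahsg2 at 24.5 CPM. Exocrine pancreas markers also summed highest among knockout libraries in library 6, at 180.0 CPM. Among wild-type libraries their sum was highest in library 6 too, at 246 CPM, but library 3 was close at 235 CPM. Knockout library 6 was lowest of its group for rac1a (11.6 CPM) and highest for myf5 (7.05 CPM). Wild-type library 6 was lowest of its group for tpma (6714 CPM) and for the proteasome gene psmb4 (58.5 CPM).

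Knockout library 5 was high for the summed macrophage and antigen presentation list (3138 CPM), mhc2a (452 CPM) and cd74b (740.3 CPM). Knockout library 1 was high for the slow fibre genes smyhc2 (1424 CPM) and tnnc1b (1137 CPM), and knockout library 2 for stm (23.1 CPM). Wild-type library 7 was low for reep6 (2.15 CPM), pdha1b (2.15 CPM) and pla2g1b (0 CPM) and high for AL929210.2 (318 CPM).

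The genotype effect differed between muscle and liver for tspo (difference of log2 changes -1.51), pdha1a (-1.44), mt-nd3 (-1.46), mt-co1 (-1.24) and psmd4b (-2.08), each with a negative log2 change in muscle and a positive one in liver in edgeR. None of the 5 was called in thinned libraries, pdha1a, psmd4b and mt-co1 were not called without the muscle libraries numbered 6, and tspo, pdha1a and mt-co1 were not called with library totals.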

How the results depend on the processing

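The count of 0 genes called between knockout and wild-type muscle stayed 0 with limma-voom, DESeq2 size factors, library totals, filterByExpr, at least 50 counts, thinning, liver genes removed, the hepatocyte share as a covariate, an adjusted p under 0.10 and a fold of at least 1.2. It was 1 in DESeq2 (695 at an unadjusted p under 0.05), 1 without both libraries numbered 6, and 3 with no filter (cpa5, CR931813.2 and si:dkey-12e7.4, of 29511 genes). With single libraries left out the count was 0 to 1, the 1 being cpa5 without knockout library 6. To compare same-numbered libraries, each gene's mean in its genotype was subtracted from its log2 CPM. These deviations, not the levels themselves, correlated between -0.03 and 0.42 in same-numbered libraries. The correlation was above 0.1 in 6 of 8 pairs and highest for the number 6 pair, both with liver transcripts. By these deviations knockout libraries 5, 6 and 7 and wild-type libraries 1, 4, 5, 6 and 8 correlated best with the same number in the other genotype. The others did not. With 8 candidates per library, chance alone would give the same number about 1 time in 8. The numbers were not taken as pairs because not every pair was above 0.1, which does not settle whether they mark pairs. With the replicate block 2 genes were called (cpa5 and AL929210.2), with 925 genes at an unadjusted p under 0.05 against 606 in the main fit. With the block and without both libraries numbered 6, 1 gene was called (cpa5). Fits with libraries left out kept the genes chosen by the count filter over all libraries. Without knockout library 6, alone or together with wild-type library 6, cpa5 would not have met that filter. Leaving out each library moved the gys1 difference between -0.27 and -0.16, the gys2 difference between 0.43 and 0.85 and the difference in library totals between -1353230 and -553233 counts. The interaction count of 30 became 5 without the muscle libraries numbered 6, 3342 with library totals, 153 in DESeq2 and 0 after thinning; the cause was not tested. The log2 change of f2 was -0.82 over all libraries and ran from -1.47 without knockout library 6 to 0.063, a reversed sign, without wild-type library 6; these libraries hold its highest values. Depth limits genes under 5 CPM, gys2 included.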
